A study of Bos taurus with 8 samples.

Results

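The tribbles family of pseudokinases was followed through the ovulatory surge of luteinizing hormone (LH) in bovine granulosa cells. All array probes whose platform gene symbol is TRIB1, TRIB2 or TRIB3 were taken, which gave these 3 of 15216 named genes, read by 7 of 43794 probes: 3 for TRIB1, 3 for TRIB2 and 1 for TRIB3. All 7 passed the filter on dim probes, as did 38453 probes in all. The family was chosen by earlier results of these arrays in which TRIB2 was among the largest decreases after LH. The changes of TRIB2 against pre-LH are therefore given as a description, without a test. TRIB1 and TRIB3 came in by family name, and their changes are given with the p-value of the fit across all probes.

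Tribbles proteins have a kinase-like fold but little or no catalytic activity and work as scaffolds. A C-terminal motif binds the ubiquitin ligase COP1 and a second one binds MAP kinase kinases; in mammalian blood cells TRIB1 and TRIB2 bring C/EBP transcription factors to COP1 for degradation. TRIB3 is known as a target of the stress factors ATF4 and CHOP (gene DDIT3) and as a binding partner of AKT kinase. Granulosa cells line the follicle and surround the oocyte; the LH surge starts the programme that leads to ovulation and luteinization, for which C/EBP factors and MAP kinase signalling in granulosa cells are required in mice.

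The cells came from normally cyclic Holstein Friesian cows that had been stimulated with FSH, and all 3 groups shared that treatment and the preceding progestagen implants and prostaglandin. The pre-LH group was collected 2 h before the surge from follicles of 6 to 8 mm. The other groups were collected 6 h after a surge induced with GnRH, from follicles over 8 mm, and 22 h after it, from pre-ovulatory follicles, so that follicle size differed along with time. On 1 slide, 4 arrays set 6 h post-LH RNA against pre-LH RNA, and another 4 on a different slide set 22 h post-LH RNA against pre-LH RNA; replicates 1 and 2 of each time carried the post-LH RNA in Cy5 and replicates 3 and 4 in Cy3. The labels call the replicates biological but do not say how many cows stand behind each, or whether the pre-LH RNA of both slides was the same. Both comparisons may therefore share pre-LH samples. The test of 22 h against 6 h took the ratios of all arrays as independent, which shared pre-LH RNA would break. For 22 h against 6 h, slide and time cannot be told apart.

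A spot was called detected where it was brighter than 95% of the negative controls on its array, which held for 75.1% to 85.4% of probes per channel. The replicate 4 arrays of both times stood apart: their channel levels correlated with those of replicates 1 to 3 at 0.858 to 0.877 for pre-LH and 0.842 to 0.884 for post-LH, against 0.985 to 0.997 and 0.954 to 0.993 among replicates 1 to 3. The replicate 4 arrays of both times correlated with each other at 0.994 for pre-LH and 0.963 for post-LH. Results are therefore also given without these 2 arrays. Markers of granulosa cells were detected before LH, including FSHR, CYP19A1 and AMH. All 12 granulosa markers were tested; 9 were lower at 6 h, and at 22 h 6 were lower and 1 higher. The labels state that scraping brought in a minor share of theca cells. All 10 theca markers were also tested: 4 were lower and 1 higher at 6 h, and 6 were lower and 2 higher at 22 h. The summed linear intensity of the theca list was 60576 to 83781 pre-LH, 35247 to 58474 at 6 h and 55396 to 67075 at 22 h. In bulk RNA, fewer cells of a type and less RNA per cell cannot be told apart. Of 8 known LH response genes, 7 were higher at 6 h, and 6 were higher and 1 lower at 22 h. Beside these marker counts, 11.5% of all tested genes were higher and 12.8% lower at 6 h, and 9.75% and 10.6% at 22 h.

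TRIB2 signal was high before LH and lower at both later times on the brighter pair of its probes. On the bright probe EMBV3_27266 the log2 ratio of 6 h post-LH over pre-LH was -2.85, -2.72, -3.20 and -3.26 on replicates 1 to 4. All 4 arrays lay far below 0, and the 2 arrays with post-LH RNA in Cy3 were lower than the 2 with it in Cy5. At 22 h the ratios were -2.95, -2.63, -3.11 and -3.10, again with the Cy3 pair lower. The fitted change was -3.01 ± 0.06 (limma SE, n = 4 arrays) at 6 h, a measured level 8.05-fold lower. At 22 h it was -2.95 ± 0.06 (n = 4), 7.71-fold lower as measured. The pre-LH signal lay near the top of the scanner's range, as given below, so these folds and the ranks are those of the recorded intensities and may understate the decrease. Ranked by size among the decreases of all 38453 tested probes, the probe stood at place 2 at 6 h and place 8 at 22 h.

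The 2 changes of that TRIB2 probe were close in size. Their difference, 22 h against 6 h, was 0.06 on the log2 scale, with a 95% interval from -0.12 to 0.25 (adjusted p = 0.697, limma with Benjamini-Hochberg adjustment over all tested probes). Without the replicate 4 arrays the changes were -2.99 and -2.96, with a difference of 0.03 (adjusted p = 0.883). The pre-LH spots of this probe were close to the scanner's 16-bit limit of 65535. Their median pixel intensities were 61052 to 63741 on 6 of 8 arrays, and 42740 and 44628 on the replicate 3 arrays, where the log2 ratios were -3.20 and -3.11. No spot had a median at the limit, and the number of pixels at the limit is not given in the files used here. Post-LH medians were 4609 to 6136 at 6 h and 5411 to 6814 at 22 h.

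A second TRIB2 probe, EMBV3_14703, was measured far from the limit, with pre-LH mean intensities of 4047 to 7229. At 6 h its log2 ratios were -2.44, -2.24, -2.14 and -2.20. At 22 h they were -2.15, -2.70, -2.78 and -3.01. Every array was again below 0, and the 22 h arrays spread more widely than the 6 h arrays. The fitted changes were -2.25 ± 0.12 (n = 4, 4.77-fold lower, place 11 among decreases) and -2.66 ± 0.12 (n = 4, 6.33-fold lower, place 12). The difference between the times was -0.41 (95% interval -0.82 to 0.00, adjusted p = 0.21, limma). Without replicate 4 the changes were -2.28 and -2.56.

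The third TRIB2 probe, EMBV3_06689, was dim, with pre-LH means of 92 to 173 against negative-control thresholds of 114 to 156 in Cy3 and 65 to 80 in Cy5. Its changes were -0.22 ± 0.06 at 6 h and -0.06 ± 0.06 at 22 h (n = 4 each), so it did not show the decrease of the other TRIB2 probes. The difference between its times was 0.16 (adjusted p = 0.293, limma). Probe sequences were not used here, so which transcript each probe reads is not given.

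**Figure D1:**
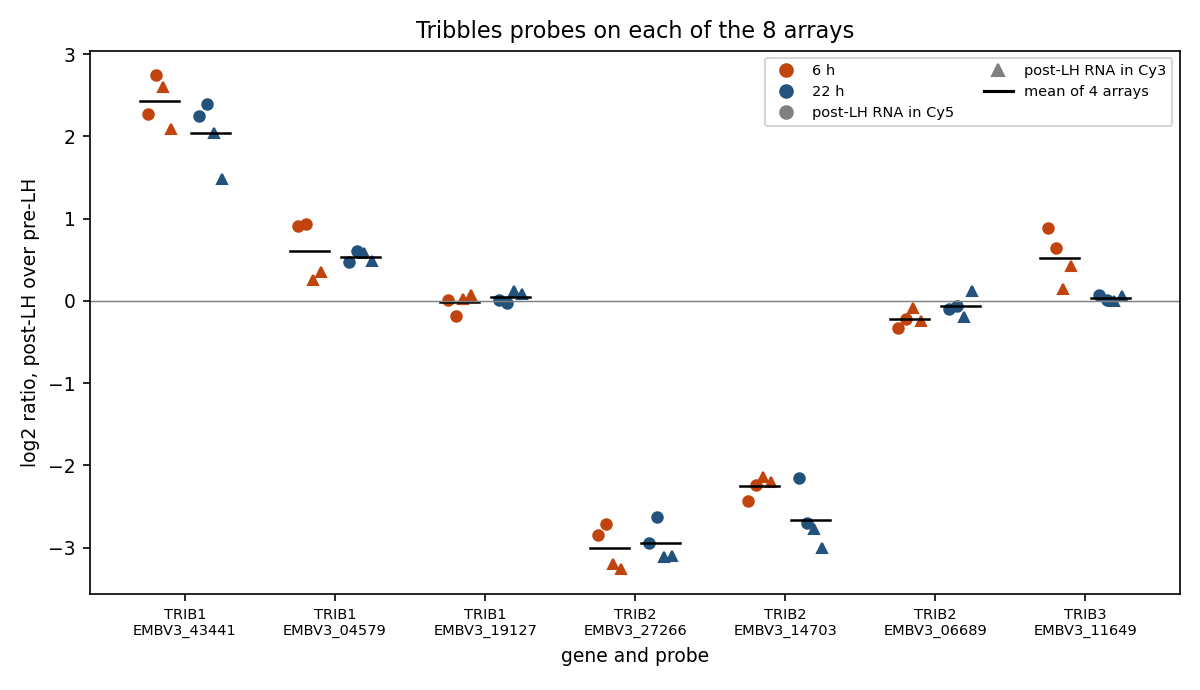
Log2 ratio of post-LH over pre-LH for each of the 7 tribbles probes, with 1 point per array (4 arrays per time, orange for 6 h and blue for 22 h; circles carry the post-LH RNA in Cy5, triangles in Cy3) and black lines at the means. The TRIB2 probes EMBV3_27266 and EMBV3_14703 lie at -2.14 or lower on all 8 arrays, the bright TRIB1 probe at 1.48 or higher, and TRIB3 at 0.14 to 0.89 at 6 h and 0.00 to 0.07 at 22 h.

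TRIB1 went the other way. On its bright probe EMBV3_43441 the pre-LH spot means were 1800 to 2167 on replicates 1 to 3 of both times, but 7122 and 7046 on the replicate 4 arrays. Post-LH means were 8226, 9342, 12683 and 30925 at 6 h, and 7827, 8749, 8899 and 20614 at 22 h. On each array the post-LH channel was the higher one, with replicate 4 above the rest in both channels. The log2 ratios were 2.27, 2.74, 2.60 and 2.09 at 6 h, and 2.25, 2.39, 2.04 and 1.48 at 22 h.

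The TRIB1 probe rose by 2.42 ± 0.14 at 6 h (SE, n = 4, 5.37-fold, adjusted p = 9.96e-05, limma), higher on 4 of 4 arrays. It was also higher at 22 h, by 2.04 ± 0.14 (n = 4, 4.11-fold, adjusted p = 0.000197, limma), again on 4 of 4 arrays. The difference between the times, -0.39, did not pass the test (95% interval -0.84 to 0.07, adjusted p = 0.279). Without the replicate 4 arrays the changes were 2.52 (adjusted p = 0.0021, limma) and 2.21 (adjusted p = 0.00175, limma). With arrays only centred on their medians instead of loess-normalised, they were 2.31 and 1.77 and missed the threshold (adjusted p = 0.0515 and 0.0844, limma). The mean over all 3 TRIB1 probes changed less, by 1.01 and 0.87 (adjusted p = 5.91e-05 and 9.81e-05, limma).

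The other TRIB1 probes were dim. EMBV3_04579, with pre-LH means of 95 to 157, rose by 0.61 ± 0.09 at 6 h (n = 4, adjusted p = 0.00465, limma) and by 0.54 ± 0.09 at 22 h (n = 4, adjusted p = 0.00928, limma). Its 6 h ratios differed by dye, with a mean of 0.92 where post-LH RNA was in Cy5 and 0.30 where it was in Cy3; at 22 h these means were 0.54 and 0.53. Without replicate 4 its 22 h call was lost (0.50, adjusted p = 0.0744, limma), while that at 6 h held (0.64, adjusted p = 0.0383). In the authors' deposited table its 22 h values were larger, at 1.17, 1.21, 0.65 and 0.74, against 0.82, 0.89, 0.60 and 0.29 at 6 h. EMBV3_19127 was above the negative controls on 6 of 8 pre-LH channels only, and its changes were -0.02 (adjusted p = 0.826) and 0.04 (adjusted p = 0.532, limma). The difference between the times was -0.08 (adjusted p = 0.778) for the first of these probes and 0.06 (adjusted p = 0.542) for the second.

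**Figure D2:**
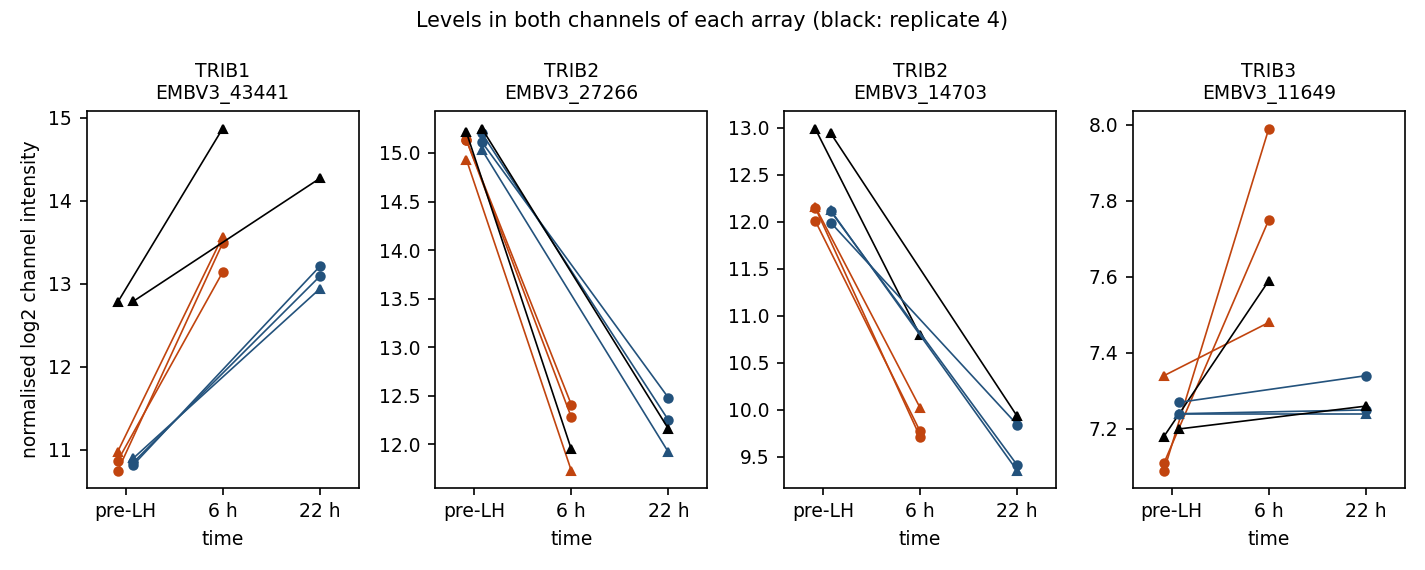
Normalised log2 channel intensity of 4 tribbles probes, with 1 line per array from its pre-LH channel to its 6 h or 22 h channel (orange for 6 h arrays, blue for 22 h arrays, black for replicate 4; circles with post-LH RNA in Cy5, triangles in Cy3). Each panel has its own scale. TRIB1 goes up on all 8 arrays and both TRIB2 probes go down, with replicate 4 starting higher for TRIB1 and for EMBV3_14703.

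TRIB3 was measured near background by 1 probe, EMBV3_11649, and passed the test as higher at 6 h. Its spot means were 85 to 158 pre-LH, 123 to 226 at 6 h and 76 to 160 at 22 h, and it was above the negative controls on every array. The log2 ratios at 6 h were 0.89, 0.64, 0.14 and 0.42. At 22 h they were 0.07, 0.01, 0.00 and 0.06, all below the lowest 6 h value. TRIB3 rose by 0.52 ± 0.09 at 6 h (n = 4, 1.44-fold, adjusted p = 0.00726, limma), higher on 4 of 4 arrays, with means of 0.77 for post-LH RNA in Cy5 and 0.28 in Cy3. At 22 h the change was 0.03 ± 0.09 (n = 4, adjusted p = 0.854).

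The difference between the TRIB3 changes was -0.49 ± 0.12 (95% interval -0.78 to -0.20) and just missed the threshold (adjusted p = 0.0504, limma). It passed without 6 h replicate 3 (-0.59, adjusted p = 0.0244, limma). The 6 h change was 0.50 without the replicate 4 arrays and then also missed (adjusted p = 0.0546, limma), as did the difference of -0.53 (adjusted p = 0.11).

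In all, 3 of the 4 TRIB1 and TRIB3 probes passed the test at 6 h, where 17.6% of all tested probes did, and 2 of 4 at 22 h, where 14% did. For 22 h against 6 h none of the 7 tribbles probes passed in limma, where 10.6% of all tested probes did. At an unadjusted p under 0.05 in limma 1 of 7 did, and the share of all probes at that level was not counted. The whole count at 6 h was 6749 probes, of which 52.2% were higher; with median centring alone it was 162, of which 89.5% were higher. At 22 h it was 5385 probes, 46.3% higher, against 235 and 69.4% with median centring. On the brightest probes, the TRIB1 ratios were 2.09 to 2.74 at 6 h and 1.48 to 2.39 at 22 h, above every TRIB3 ratio. All TRIB2 ratios there were -2.63 or lower, a gap that follows from choosing the family with the decrease of TRIB2 known. How often other genes keep apart in this way was not counted.

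The genes with ratios closest to each member were taken by the smallest root mean square difference over the 8 arrays, among the brightest probes of 14138 genes. For TRIB1 these were CD83, a surface protein of activated immune cells (0.291 log2 units), NR4A1, an orphan nuclear receptor of the immediate early kind (0.369), TIMP1, an inhibitor of metalloproteinases (0.399), PLIN2, a lipid droplet coat protein (0.411), and PRKAG2, a regulatory subunit of AMP-activated kinase (0.418). NR4A1 changed by 2.52 at 6 h and 2.03 at 22 h on the log2 scale. Within 0.5 log2 units of TRIB1 lay 9 genes. TRIB2 had none that close. The family was chosen with the large decrease of TRIB2 known, and the same ratios set this distance. Few probes fell as far (places 2 and 8), so the gap only describes the size of the change. The nearest was SLC35G1, a membrane transporter family member, at 0.681, followed by the prostaglandin-degrading enzyme HPGD at 0.80. Then came the lipid droplet protein PLIN5 at 1.01, the glutamate transporter SLC1A3 at 1.02 and the phosphatase subunit PPP2R2B at 1.02. HPGD changed by -2.88 and -2.97. TRIB3 changed little and lay within 0.5 units of 8114 genes; nearest were SLC7A2, a cationic amino acid transporter (0.0781), and GJB2, a gap junction connexin (0.0893), then LOC781001 (0.0941), GDPD1 (0.0997) and BTBD16 (0.10).

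Genes of the C/EBP list, which was drawn up by name, were followed next. Whether tribbles proteins act on each of them was not tested. Among all tested genes, 11.5% passed as higher and 12.8% as lower at 6 h, 9.75% and 10.6% at 22 h, and 7.72% and 7.41% for 22 h against 6 h. The 6 tested were CEBPA, CEBPD, CEBPE, CEBPG, CEBPZ and DDIT3. Of these 6, 2 were higher at 6 h, 1 at 22 h, and none was lower against pre-LH. CEBPD, a stress and hormone responsive member, rose by 1.86 ± 0.28 (n = 4, adjusted p = 0.0052, limma) at 6 h and by 1.85 ± 0.28 (adjusted p = 0.00623) at 22 h, with ratios from 0.51 to 2.53 and from 0.54 to 2.57 and both of its probes passing. CEBPG, which lacks a transactivation domain, rose by 0.74 ± 0.04 at 6 h (adjusted p = 0.000126, limma); at 22 h it stood at 0.16 (adjusted p = 0.0595), and the difference of -0.58 passed (adjusted p = 0.00228). CEBPA, the classic target of TRIB1 and TRIB2, was above the negative controls on 2 of 8 pre-LH channels and changed by -0.04 and 0.11 (adjusted p = 0.622 and 0.178, limma). DDIT3, encoding CHOP, was also dim, above the negative controls on 7 of 8 pre-LH channels and 3 of 4 channels at 6 h. It changed by 0.17 and 0.27 (adjusted p = 0.403 and 0.199, limma). No probe carried the symbol CEBPB, which was not analysed here. The median change over the list was 0.11 at 6 h and 0.13 at 22 h, beside 0.00 and 0.01 over all tested genes. At an unadjusted p under 0.05, none of the list was lower against pre-LH in limma. The share of all tested genes at an unadjusted p was not counted, so such counts have no background beside them here or below.

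Some genes listed with the ligase that tribbles proteins recruit were higher, at 6 h only UBE2D conjugating enzymes. Of 11 tested genes for COP1, its cullin complex and the UBE2D conjugating enzymes, 3 were higher at 6 h and 4 at 22 h, and none was lower. At an unadjusted p under 0.05 in limma, 0 were lower at 6 h and 1 at 22 h. COP1 itself, the ubiquitin ligase, changed by 0.06 at 6 h (adjusted p = 0.725, limma) and rose by 0.48 ± 0.09 at 22 h (n = 4, adjusted p = 0.0127), higher on 4 of 4 arrays. CAND1, a cullin exchange factor, rose by 0.75 ± 0.10 at 22 h (adjusted p = 0.00342, limma) and was higher at 22 h than at 6 h by 0.80 (adjusted p = 0.0144). CUL4A, the cullin scaffold, rose by 0.52 at 22 h (adjusted p = 0.0128, limma) on 1 of 3 tested probes. UBE2D1 rose by 0.62 at both times (adjusted p = 0.0352 and 0.0405, limma), and at 6 h UBE2D2 and UBE2D3 rose by 0.45 and 0.59, UBE2D2 on 1 of 2 tested probes. The calls of COP1, CUL4A and UBE2D1 were lost without single arrays: COP1 without 22 h replicate 3 or 4 (adjusted p up to 0.0764, limma), CUL4A without 22 h replicate 3 (0.078), and UBE2D1 without any of 5 arrays at each time (up to 0.166 and 0.151). The difference for CAND1 was lost without 6 h replicate 2 or 22 h replicate 3 (adjusted p up to 0.0541). Without replicate 4 of both times, 1 gene of the list was higher at 6 h, and at 22 h 2 were higher and 1 lower. Over all tested probes that fit called 4691 at 6 h and 4136 at 22 h, beside 6749 and 5385 with all arrays. The medians were 0.06 and 0.32.

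Of 9 tested other substrates of COP1, 3 were higher and 1 lower at 6 h, 1 higher and 2 lower at 22 h, and 3 were lower at 22 h than at 6 h. ETS2, an ETS factor downstream of MAP kinase, rose by 0.92 ± 0.10 at 6 h (n = 4, adjusted p = 0.00126, limma) and was below pre-LH by 22 h (-0.41, adjusted p = 0.0352); its difference between the times was -1.33 (adjusted p = 0.00209). ETV5, another ETS factor, rose by 0.84 at 6 h (adjusted p = 0.00195, limma) and stood at -0.31 at 22 h (adjusted p = 0.0964), with a difference of -1.15 (adjusted p = 0.00396); 1 of its 3 tested probes passed in each of these calls. ETV4 rose at 22 h by 0.83 (adjusted p = 0.0146, limma), JUN at 6 h by 0.37 (adjusted p = 0.0463), and ETS1 differed between the times by -0.33 (adjusted p = 0.0341). FOXO1, a forkhead factor of growing follicles that AKT inactivates, was lower at both times, by -0.82 ± 0.07 (adjusted p = 0.000631, limma) and -0.50 ± 0.07 (adjusted p = 0.00508). Calls lost without single arrays were those of JUN (adjusted p up to 0.201), ETV4 (up to 0.0835, without 22 h replicate 1 or 3), ETS1 (up to 0.105) and ETS2 at 22 h (up to 0.107, limma), for ETS1 and ETS2 without any of 6 arrays and for JUN without any of 5. The medians were 0.31 at 6 h and 0.02 at 22 h.

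MAP kinase kinases and kinases, which bind tribbles proteins, were higher in part. Of 11 tested, 3 were higher and 1 lower at 6 h, and 3 were higher and none lower at 22 h. At an unadjusted p under 0.05 in limma, 5 were higher and 2 lower at 6 h, and 5 were higher and 0 lower at 22 h. MAPK14, the p38 alpha kinase, rose by 0.98 ± 0.11 at 6 h (n = 4, adjusted p = 0.0016, limma) and by 0.50 ± 0.11 at 22 h (adjusted p = 0.0272), with all 3 of its probes passing. MAP2K1, the ERK-activating kinase MEK1, rose by 0.65 at 6 h (adjusted p = 0.00703, limma). MAP2K3 rose by 0.60 and 0.42 (adjusted p = 0.0065 and 0.0311, limma), while MAP2K6, the other activator of p38, was lower at 6 h by -0.71 ± 0.07 (adjusted p = 0.000788) and differed between the times by 0.59 (adjusted p = 0.0104). MAP2K5, which activates ERK5, rose by 0.63 at 22 h (adjusted p = 0.021, limma), and 22 h exceeded 6 h by 1.07 (adjusted p = 0.0141). The 22 h calls of MAP2K3 and MAPK14 were lost without any of 5 arrays (adjusted p up to 0.115 and 0.128, limma), and that of MAP2K5 without 22 h replicate 3 (0.11). Its difference was lost without 6 h replicate 1 or 2 or 22 h replicate 3 (up to 0.0572). Without replicate 4 of both times, 1 gene of the list passed at 22 h. The medians were 0.13 and 0.25.

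The AKT and FOXO pathway, through which TRIB3 acts in liver of mice, changed in few genes. Of 14 tested, 1 was higher at 6 h, and 1 was higher and 1 lower at 22 h. None was lower at 6 h after adjustment, and 1 was at an unadjusted p under 0.05 in limma. AKT1 rose by 0.21 ± 0.05 at 6 h (n = 4, adjusted p = 0.03, limma), on a dim probe with a mean log2 intensity of 7.31, beside 7.36 for TRIB3. INPP4B, a phosphoinositide phosphatase, rose by 0.43 at 22 h (adjusted p = 0.032, limma). AKT2 was lower at 22 h by -0.82 ± 0.11 (adjusted p = 0.00425, limma), with array ratios spread from -1.47 to -0.11. It differed between the times by -0.70 (adjusted p = 0.0383, limma). Its probe was bright, with a mean log2 intensity of 14.24, beside 13.63 for the bright TRIB2 probe. Besides AKT2 against pre-LH, these calls were lost without single arrays: AKT1 without 6 h replicate 1, 2 or 4 (adjusted p up to 0.125, limma), INPP4B without any of 5 arrays (up to 0.144) and the AKT2 difference without any of 6 (up to 0.121). The medians were -0.03 and 0.06.

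The stress response upstream of TRIB3 gave mixed changes. Of 20 tested ATF4 and CHOP pathway genes, 6 were higher and 3 lower at 6 h, and 5 higher and 2 lower at 22 h. ATF4, the central factor, rose by 0.85 ± 0.13 at 6 h (n = 4, adjusted p = 0.00485, limma) and stood at 0.42 at 22 h (adjusted p = 0.0797). ATF3, another factor of the response, rose by 2.47 ± 0.13 (adjusted p = 8.79e-05, limma) and 2.10 ± 0.13 (adjusted p = 0.000161). DDIT4, an inhibitor of mTOR signalling, rose by 1.56 ± 0.10 at 6 h (adjusted p = 0.000166, limma). At 22 h DDIT4 was still above pre-LH, by 0.65 ± 0.10 (adjusted p = 0.00608, limma), but lower than at 6 h by -0.91 (adjusted p = 0.00907). The serine synthesis enzymes PSAT1 and PHGDH, targets of ATF4, were lower at both times. PSAT1 changed by -1.48 ± 0.17 and -2.34 ± 0.17 (adjusted p = 0.00153 and 0.000271, limma). PHGDH changed by -1.10 ± 0.12 and -1.15 ± 0.12 (adjusted p = 0.00143 and 0.00136, limma). MTHFD2, a mitochondrial folate enzyme, rose by 0.59 ± 0.11 at 6 h (adjusted p = 0.011, limma) and stood at -0.24 at 22 h (adjusted p = 0.212). Its difference of -0.83 (adjusted p = 0.0174, limma) was lost without 6 h replicate 2 or 22 h replicate 3 (up to 0.066). TXNIP, a thioredoxin-binding protein, was lower at 6 h by -0.78 ± 0.10 (adjusted p = 0.0027, limma) and higher at 22 h by 0.77 ± 0.10 (adjusted p = 0.00338). Its difference was 1.55 (adjusted p = 0.00143, limma). For the differences, 1 of 2 tested MTHFD2 probes and 2 of 4 tested TXNIP probes passed. Against pre-LH, 1 MTHFD2 probe was higher and 2 TXNIP probes were lower at 6 h, and 1 TXNIP probe was higher at 22 h. The medians were 0.12 and 0.02.

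**Figure D3:**
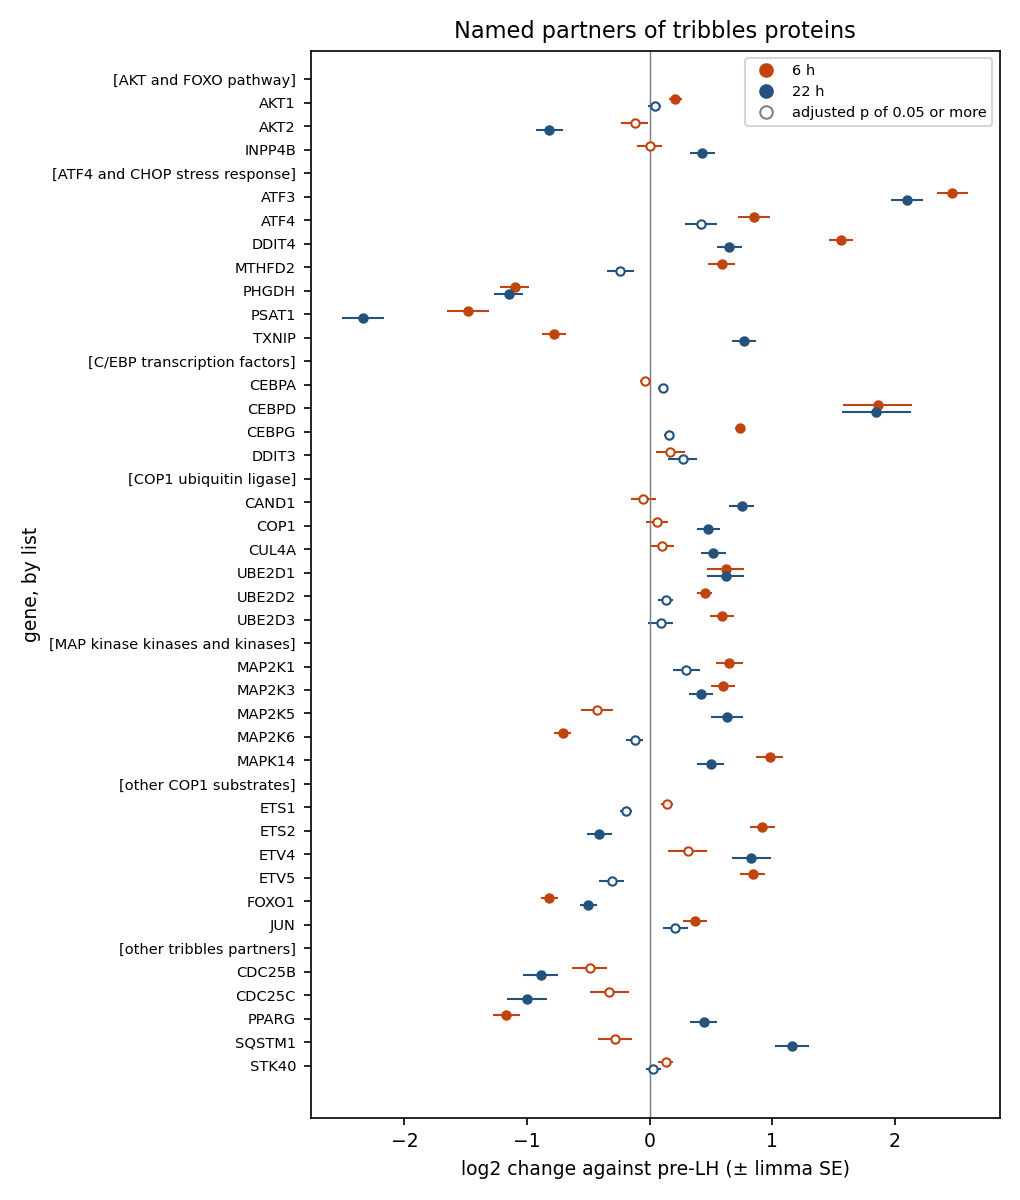
Log2 change against pre-LH (± limma SE, n = 4 arrays per time, orange for 6 h and blue for 22 h) of the named genes on the partner lists, with open points where the adjusted p was 0.05 or more. CEBPD and ATF3 lie furthest to the right at both times and PSAT1 furthest to the left at 22 h.

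Of 12 other partners, 1 was lower at 6 h, and 2 were higher and 2 lower at 22 h. None was higher at 6 h after adjustment, and 2 were at an unadjusted p under 0.05 in limma. PPARG, the fat cell nuclear receptor that TRIB3 binds, was lower at 6 h by -1.17 ± 0.11 (n = 4, adjusted p = 0.000886, limma) and higher at 22 h by 0.44 ± 0.11 (adjusted p = 0.0456), with a difference of 1.61 (adjusted p = 0.00174). Its 22 h call was lost without any of 6 arrays (adjusted p up to 0.164, limma). SQSTM1, the autophagy receptor that TRIB3 binds, rose by 1.16 ± 0.14 at 22 h (adjusted p = 0.00257, limma), with a difference of 1.43 (adjusted p = 0.00644). The phosphatases CDC25B and CDC25C, which start mitosis, were lower at 22 h, at 0.541 and 0.5 of their pre-LH levels (adjusted p = 0.00693 and 0.0078, limma); of the CDC25B probes, 1 of 3 passed. STK40, the related pseudokinase that also binds COP1, changed by 0.13 and 0.03 (adjusted p = 0.224 and 0.847, limma). The list medians were -0.03 at 6 h and 0.02 at 22 h.

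Markers of other cells moved beside these results. Of 11 tested leukocyte markers, CD68, CD163, AIF1 and CD14 were higher at 6 h, while none passed at 22 h, where 1 was higher at an unadjusted p under 0.05 in limma. The summed intensity of that list was 2517 to 4344 pre-LH, 2880 to 4292 at 6 h and 2648 to 5570 at 22 h. Of 9 endothelial markers, 1 was higher and 1 lower at 6 h and 4 were lower at 22 h, with sums of 10476 to 21186 pre-LH, 10783 to 18600 at 6 h and 7556 to 16647 at 22 h. The granulosa list summed to 91303 to 107593, 72117 to 91500 and 28448 to 89914. No tested marker of these lists was below the negative controls on all pre-LH channels. The part of cell makeup in the changes of TRIB1, TRIB2 and TRIB3 was not tested.

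The series' processed table, in which the authors' processing steps are not stated, gave the brightest probe of each member the same directions at 6 h. In the authors' deposited table the log2 values of EMBV3_27266 were -3.47, -3.11, -3.16 and -3.50 on the 6 h arrays. In that deposited table its 22 h values were -3.22, -3.13, -3.14 and -3.38. In the authors' deposited table the bright TRIB1 probe stood at 2.33, 2.67, 2.60 and 1.89 at 6 h and at 2.44, 2.59, 2.08 and 1.36 at 22 h. TRIB3 in the authors' deposited table stood at 1.00, 0.75, 0.50 and 0.65 at 6 h and at 0.56, 0.06, 0.03 and 0.36 at 22 h, so that the 22 h values there overlapped those at 6 h.

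**Figure D4:**
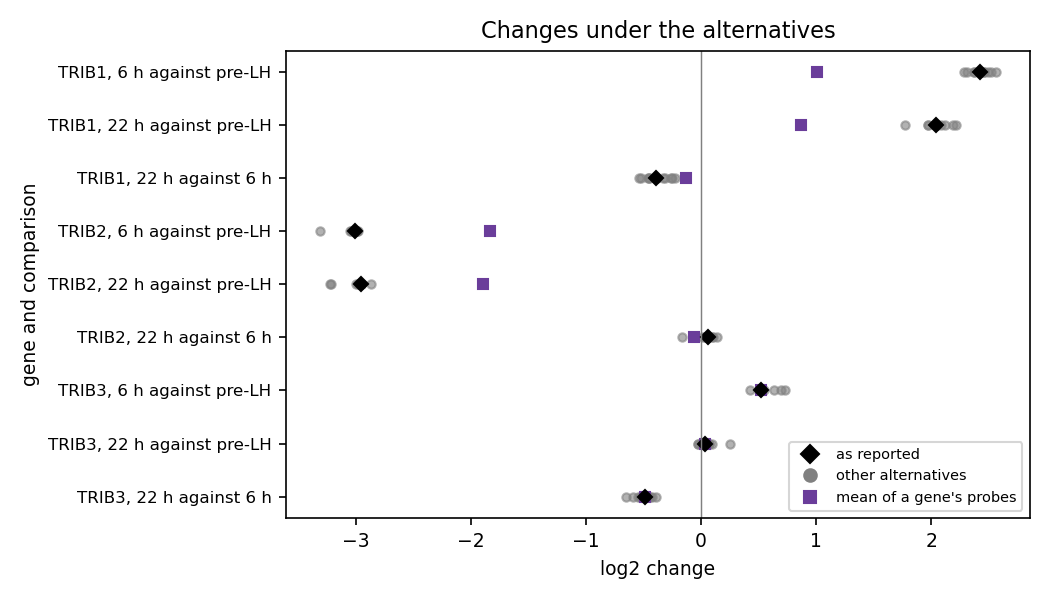
Log2 change of TRIB1, TRIB2 and TRIB3 as reported (black diamonds) and under each alternative setting (grey circles, with the mean over a gene's probes as purple squares). The TRIB1 changes against pre-LH stay between 0.87 and 2.56 and the TRIB2 changes between -3.31 and -1.83, where the values nearest 0 are means over bright and dim probes.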

How the data were processed

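Granulosa RNA was amplified, labelled and hybridised in pairs to 8 two-colour EMBV3 arrays, per the labels' protocols. The deposited scanner files give the intensity of each spot, before normalization. The deposited series table holds log2 ratios; set against the scanner values it ran post-LH over pre-LH (r 0.822 to 0.906, slope 1.07 to 1.27). Its column medians were -0.00936, -0.016, 0.000132 and 0.00199 at 6 h and -0.00637, -0.0133, 0.00502 and 0.00138 at 22 h; its normalization is not given in the sources used here.

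In limma 3.58.1 (R 4.3.3), mean intensities were corrected with normexp (offset 50) and loess-normalised within arrays with the 1418 control spots at weight 0. Ratios were turned to post-LH over pre-LH. Channel levels came from loess with Aquantile. Probes brighter than the 95th percentile of 153 negative controls on a share of 0.5 of the arrays of at least 1 group were tested (38453 of 43794). One linear model over 8 arrays held both times and a common dye effect (5 residual degrees of freedom), with Benjamini-Hochberg adjustment over all tested probes and a threshold of 0.05. The model was also run on simulated ratios with known changes, independent noise and a dye effect shared by both times. That simulation held no arrays standing apart, as replicate 4 does here, and no dye gap that differs between the times. The number of arrays limits the precision.

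Gene names came from the platform annotation, updated for 1524 probes; 21790 probes had 1 symbol, 22004 none and 0 several. All tribbles probes are reported; another gene's value is that of its brightest tested probe. From each list, the text names the 3 genes with the largest passing changes, all passing genes of lists with 4 or fewer, and the partners CEBPA, CEBPB, COP1, MAP2K1, AKT1, AKT2, ATF4, DDIT3 and STK40; for likeness it names the 5 nearest genes per member. The members and lists were chosen with earlier results of these data known. Alternatives were background correction, normalization, filter, dye term, replicate block, single slides, probe averaging, the deposited ratios and left-out arrays; leaving out replicate 4 of both times was chosen after seeing the data.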

Additional observations from a re-analysis of the deposited data

Results flagged for a closer look

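On the dim TRIB2 probe EMBV3_06689, the 22 h replicate 4 array was far above the others in both channels, with a normalised log2 level of 8.00 post-LH and 7.88 pre-LH. These were 2 of 35 sets of values examined for a lone high or low sample, where chance gives about 1 in 20.

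Of 83 tested genes on the partner lists, 13 differed between 22 h and 6 h by the test of the difference in limma, or 15.7%, beside 15.1% of all 14138 tested genes (2139), so the lists were close to the background share. Higher at 22 h were PPARG by 1.61, TXNIP by 1.55, SQSTM1 by 1.43, MAP2K5 by 1.07, CAND1 by 0.80 and MAP2K6 by 0.59 on the log2 scale. Lower at 22 h were ETS2 (-1.33), ETV5 (-1.15), DDIT4 (-0.91), MTHFD2 (-0.83), AKT2 (-0.70), CEBPG (-0.58) and ETS1 (-0.33). Slide and time cannot be told apart in these differences, and their test took the arrays as independent although pre-LH RNA may be shared.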

How the results depend on the processing

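TRIB1 at 6 h and 22 h passed the test under 19 of 20 alternatives each, the exception being median centring (2.31 and 1.77), and TRIB2 stayed below 0 in all 20. TRIB2 was -3.31 and -3.22 in the deposited ratios, -1.83 and -1.89 as the mean of its probes and -3.21 at 22 h with median centring; its difference between the times turned sign with median centring (-0.17) and with the mean of probes (-0.06). TRIB3 at 6 h missed the threshold with median centring (0.51) and without replicate 4 of both times (0.50). Its near-zero 22 h value turned sign without replicate 4 of both times (-0.03). Its difference between the times passed under only 4 of 19 alternatives, with adjusted p from 0.0135 to 0.542 over all of them (limma). Those 4 were no background correction (-0.49), offset 16 (-0.65), the strict filter (-0.49) and leaving out 6 h replicate 3 (-0.59). Probes called fell to 162, 235 and 35 with median centring for 6 h, 22 h and 22 h against 6 h (6749, 5385 and 4071 as reported), and to 1828 for the slide of 22 h alone; the cause was not tested. Leaving out single arrays gave 3526 to 7298, 2594 to 5320 and 2201 to 3836 probes, the low counts coming without 6 h replicate 1 or 2 and without 22 h replicate 3. It gave TRIB1 2.28 to 2.56 and 1.97 to 2.19, TRIB2 -3.05 to -2.98 and -3.00 to -2.87, and TRIB3 0.42 to 0.63 and -0.03 to 0.09, with a TRIB3 difference of -0.59 to -0.39. Of 52 calls of named partner genes, 34 held without each single array and 38 without replicate 4 of both times. These 52 do not include the 6 h calls of PHGDH, MTHFD2 and TXNIP or the 22 h calls of DDIT4 and TXNIP.

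Residuals of arrays with the same replicate number at both times correlated at -0.103, 0.179, 0.108 and -0.296. Arrays of the same number carried the same dye, and the common dye effect of the fit makes residuals of same-dye arrays at both times offset each other. These correlations therefore cannot decide whether the numbers are pairs. The numbers were not taken as pairs in the reported fit. The channel levels of the 2 replicate 4 arrays resembled each other more closely than they did replicates 1 to 3 (0.994 pre-LH and 0.963 post-LH). With the replicate number as a block, 6558, 5333 and 3752 probes were called, TRIB1 was 2.42 and 2.04, and TRIB3 at 6 h was 0.52 (adjusted p = 0.0194, limma). By these residuals, no array correlated best with the array of its own number at the other time, and the common dye effect limits this as well.

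Signal over background limits TRIB3 and the dim TRIB1 and TRIB2 probes, which lay close to the negative controls, and the scanner's upper limit bounds the bright TRIB2 probe; EMBV3_43441 and EMBV3_14703 were near neither.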
